A study of Mus musculus with 23 samples.

Results

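The 43 interferon response genes described here were the rows of the expression table whose gene symbol matched a fixed list, out of 39179 genes in the table. All 43 symbols were found once each, and all 43 passed the filter on low values that left 14896 genes for testing. Expression was measured by total RNA sequencing of mesenteric arteries, the vessels that supply the gut, from male C57BL/6J mice aged 10 to 12 weeks. Angiotensin II (Ang II), a peptide hormone that raises blood pressure, was infused under the skin from an osmotic minipump at 1000 ng/kg/min. The groups were Ang II for 7 days (n = 6), sham surgery at 7 days (n = 6), Ang II for 14 days (n = 5) and sham surgery at 14 days (n = 6). The labels give no other allele or agent, and each library carried its own animal number, so the replicates were separate animals. The vessels were dissected whole, so every value averages over smooth muscle, endothelium, adventitia and adhering cells.

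Interferons are secreted proteins that alarm cells to infection and tissue damage. Type I interferons bind the Ifnar1/Ifnar2 receptor and, through the kinases Jak1 and Tyk2, activate a complex with Stat2 and Irf9 that binds the interferon-stimulated response element (ISRE) in target promoters. Interferon gamma binds Ifngr1/Ifngr2 and acts on target promoters through the gamma-activated site (GAS). The targets code for antiviral enzymes, membrane-attacking GTPases, RNA sensors and the machinery that loads peptides onto MHC class I. In arteries these genes are transcribed by endothelial and smooth muscle cells as well as by macrophages.

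Promoter sequences of 250 bases before to 50 bases after the transcription start were taken from RefSeq on GRCm38.p6, where 30 of the 43 genes matched. The ISRE-like motif (GAAA, any 2 bases, GAAA, or its reverse complement TTTC, any 2 bases, TTTC) was present in 18 of the 30 (60.0%), against 3.99% of 27025 genes with such a window. The GAS-like motif (TTC, any 3 bases, GAA, which is its own reverse complement) was present in 10 of the 30 (33.3%), against 9.55% of those genes. Both motifs were searched on both strands. The 7 genes with both were Bst2, Gbp5, Gbp7, Ifitm3, Igtp, Irgm2 and Oas1a, and 9 genes had neither within the window. In Isg15 3 ISRE-like matches overlap in a single run, and in Bst2 a GAS-like match overlaps an ISRE-like one. A match describes letters in a window and is no evidence of binding. The stretches below show the motifs of 9 of the genes, each with up to 25 bases on either side. They are read 5′ to 3′ on the gene's strand, with the motif in capitals. Isg15 (chr4:156200850-156200921, minus strand) codes for a ubiquitin-like modifier and Ifit1 (chr19:34640760-34640838, plus strand) for a binder of foreign RNA. Rsad2 (chr12:26456538-26456597, minus strand), Oas3 (chr5:120777700-120777759, minus strand) and Stat2 (chr10:128270251-128270310, plus strand) had unadjusted p-values under 0.05 at 14 days. Irf1 (chr11:53769899-53769957, plus strand), Gbp2 (chr3:142620579-142620638, plus strand), Igtp (chr11:58199486-58199555, plus strand) and Irgm2 (chr11:58214877-58214947, plus strand) did so at 7 days.
Isg15: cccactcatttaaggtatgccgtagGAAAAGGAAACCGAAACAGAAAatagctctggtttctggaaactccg
Ifit1: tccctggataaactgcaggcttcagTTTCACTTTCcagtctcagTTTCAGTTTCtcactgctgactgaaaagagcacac
Rsad2: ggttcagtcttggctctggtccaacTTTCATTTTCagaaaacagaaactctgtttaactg
Oas3: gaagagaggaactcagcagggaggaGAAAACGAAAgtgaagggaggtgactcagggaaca
Stat2: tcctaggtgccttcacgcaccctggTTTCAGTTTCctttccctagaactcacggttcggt
Irf1: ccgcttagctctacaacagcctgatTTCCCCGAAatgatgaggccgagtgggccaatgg
Gbp2: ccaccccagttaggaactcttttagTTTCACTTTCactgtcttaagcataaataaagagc
Igtp: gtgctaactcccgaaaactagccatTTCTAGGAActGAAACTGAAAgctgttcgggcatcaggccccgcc
Irgm2: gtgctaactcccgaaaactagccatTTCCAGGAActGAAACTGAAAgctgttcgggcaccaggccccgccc

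Of these, 6 stretches carry ISRE-like motifs alone, in the GAAA form in Isg15 and Oas3 and in the TTTC form in Ifit1, Rsad2, Stat2 and Gbp2. Irf1 carries a GAS-like motif alone. Igtp and Irgm2, neighbours on chromosome 11 that code for immunity-related GTPases, carry a GAS-like motif followed by an ISRE-like motif in the same order and spacing. Over 70 aligned bases these 2 stretches are identical at 68 (97.1%), although they begin at different distances from their annotated starts (the first motif base lies at -45 in Igtp and at -75 in Irgm2). The RefSeq window of Gbp5 lies outside the gene span of the GENCODE annotation and is therefore not shown. The motif counts above, for ISRE-like, GAS-like and both, include that window.

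None of the 43 genes passed an adjusted p of 0.05 in limma at 7 or at 14 days, and none did in edgeR or DESeq2 on the recovered reads at either time. Over all genes, limma called 0.752% higher and 0.0671% lower at 7 days, and 4.04% higher and 2.01% lower at 14 days. Most fold changes of the 43 genes were negative at 7 days and positive at 14 days. At 7 days 37 of the 43 fold changes were below 0, against 49.6% of all genes, with a median log2 fold change of -0.23 against 0.00 over all genes. At 14 days 13 of the 43 were below 0, against 45.0% of all genes, with a median of 0.07 against 0.03. At an unadjusted p under 0.05, limma had 11 of the 43 lower and 0 higher at 7 days, where 3.08% of all genes were lower and 6.2% higher. At 14 days the same count was 0 lower and 5 higher, where 10.2% of all genes were lower and 14.4% higher. edgeR and DESeq2 each gave 13 at 7 days and 5 at 14 days. The 7-day count of 11 was 5 without sham replicate 4, 5 without Ang II replicate 6, 7 without sham replicate 3 and 17 without sham replicate 6. The 14-day count of 5 was 2 without Ang II replicate 1, 1 without Ang II replicate 3 and 1 without sham replicate 4. It was 10 under scaling by the total without acinar markers and the transcript AY036118. That scaling moved the median of all genes to 0.14 and that of the 43 to 0.17. AY036118 held from 0.04% to 36.2% of a library's reads, unevenly between the groups. At 7 days its share was 0.08% to 13.2% in Ang II and 0.11% to 36.2% in sham arteries. At 14 days it was 0.04% to 0.93% in Ang II and 0.80% to 9.35% in sham arteries. The genes were chosen with earlier results of these data known, so these counts describe the list and no test was run over it.

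**Figure D1:**
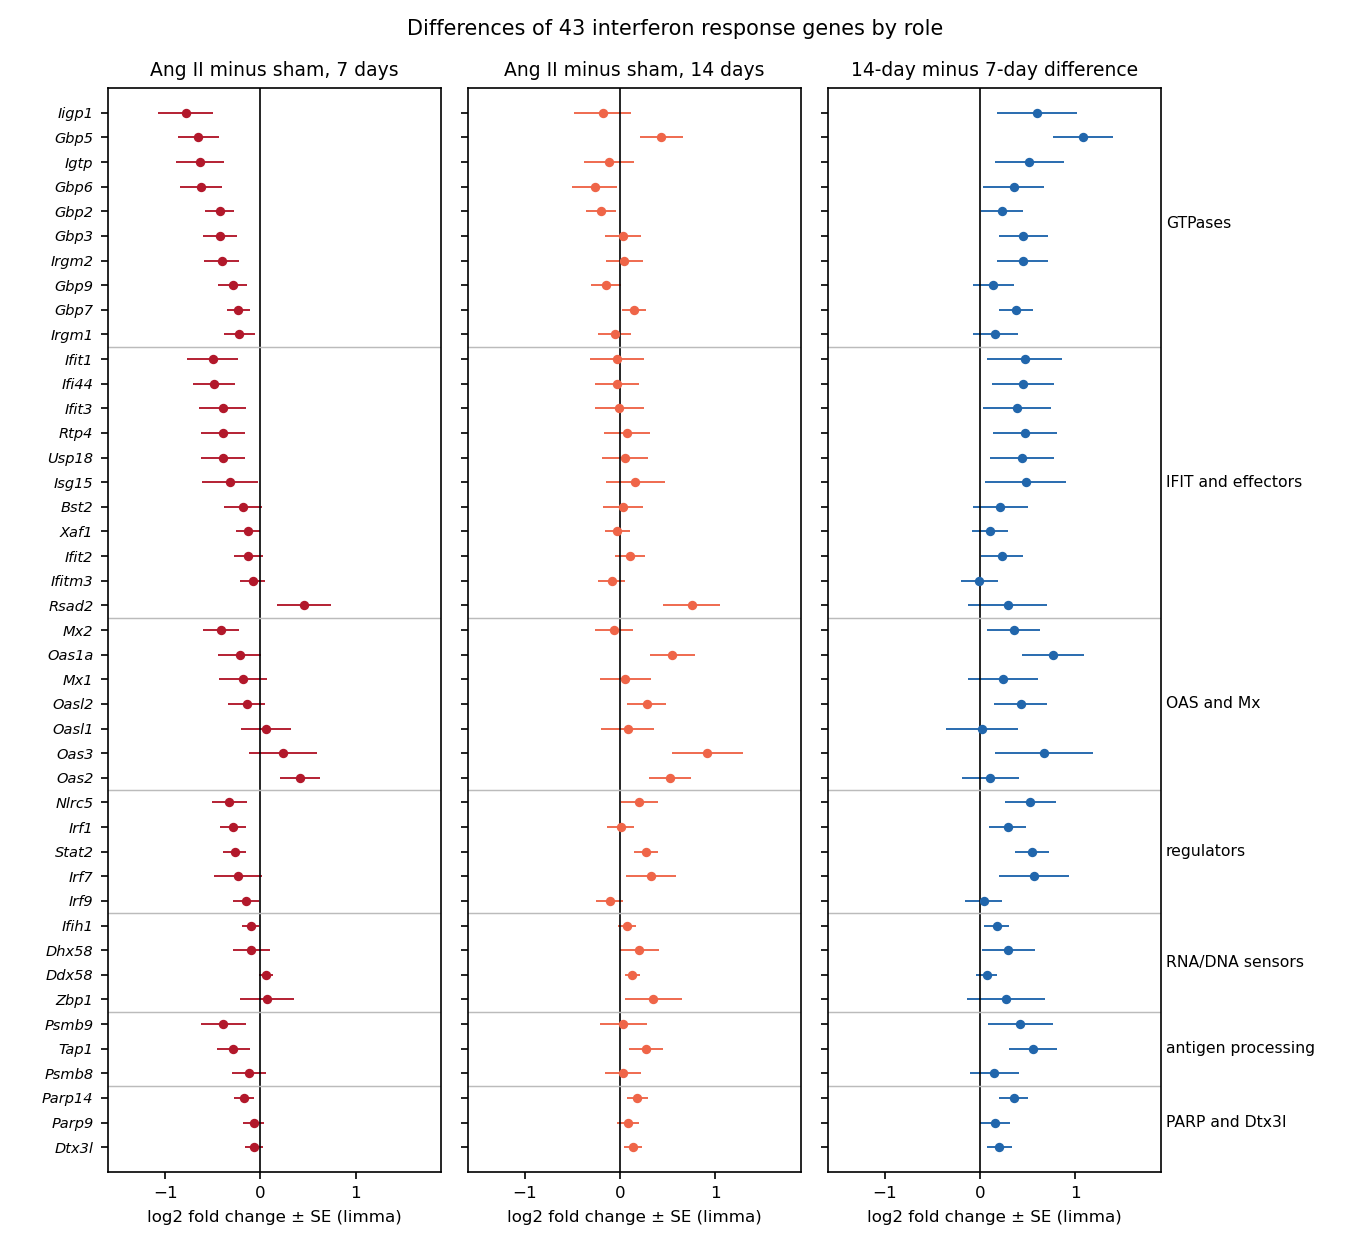
Log2 fold change with its standard error from limma for each of the 43 genes, by role: Ang II minus sham at 7 days (left), at 14 days (middle), and the 14-day minus the 7-day difference (right). All 10 GTPases lie below 0 at 7 days, whereas 42 of the 43 differences between the times lie above 0.

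The libraries held 4471038 to 21509283 reads assigned to genes, with medians of 13894240 reads in Ang II and 7201546 in sham arteries at 7 days. At 14 days the medians were 18322122 reads in Ang II and 14400313 in sham arteries. All values below are normalised signal, the authors' scaled read count per gene. All 7 smooth muscle markers were detected in every group (summed signal 5935 to 8479 in Ang II and 4931 to 8150 in sham arteries), as were all 7 endothelial markers (1011 to 1364 in Ang II and 1063 to 1433 in sham arteries). Summed macrophage markers (12 of 13 found, 0 of 12 called at 7 days and 1 at 14 days) ran from 674 to 1045 in Ang II and from 531 to 897 in sham arteries at 7 days, and from 640 to 1267 in Ang II and 536 to 766 in sham arteries at 14 days. Of the 12 macrophage fold changes, 12 were above 0 at 7 days (median 0.40) and 11 at 14 days (median 0.37). Acinar markers of adhering pancreas (13 of 13 found, 0 called at 7 days and 10 called lower at 14 days) ran from 57572 to 150935 in Ang II and from 109834 to 221057 in sham arteries at 7 days, where all 13 fold changes were below 0 (median -0.40). They ran from 53167 to 98284 in Ang II and from 82434 to 176418 in sham arteries at 14 days. Erythroid markers (7 of 7 found, 0 called) ran from 2344 to 5599 in Ang II and from 1464 to 6526 in sham arteries at 7 days, and from 2339 to 3840 in Ang II and 798 to 3737 in sham arteries at 14 days. All 7 of their fold changes were above 0 at both times, with medians of 0.40 at 7 days and 0.72 at 14 days. Fewer cells of a type and less RNA per cell cannot be told apart in these whole-vessel samples, and the part of cell composition in the results was not tested. Exons of Usp18, Oasl1, Irf1, Irf7, Nlrc5, Dhx58, Gbp2, Psmb8, Parp9 and Dtx3l overlap another gene on the other strand, and those of Rtp4, Irf9, Gbp7, Gbp9 and Parp14 another gene on the same strand, so their values are uncertain to that extent.

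The GTPases are large enzymes that gather on the membranes of vacuoles holding pathogens and are known chiefly as interferon gamma targets. Among the role groups they had the most negative median log2 fold change at 7 days. All 10 had a negative fold change, with a median of -0.43 and a range of -0.78 to -0.22, and 7 of the 10 had an unadjusted p under 0.05 in limma. Gbp5 (chr3:142594847-142619179 on GRCm38), a guanylate-binding protein that promotes inflammasome assembly, ran from 5.27 to 8.72 (median 7.45) in Ang II and from 8.84 to 16.4 (median 10.7) in sham arteries at 7 days. It was the only gene of the 43 whose groups did not overlap at 7 days, where 0.141% of all genes did so in the lower direction, and no gene of the 43 separated the groups at 14 days. Its log2 fold change was -0.65 ± 0.22 (SE), lower than the sham median in 6 of 6 libraries, with a limma adjusted p of 0.22. At 14 days Gbp5 was 9.85, 19.3, 23.7, 14.2 and 15.3 in the Ang II arteries and 7.46 to 20.8 (median 11.1) in the sham arteries. The groups then overlapped and the fold change had the opposite sign (0.43 ± 0.23, limma adjusted p = 0.24). Gbp5 was the GTPase with the largest difference between the times, 1.08 ± 0.31 on the log2 scale (unadjusted p = 0.00214, limma adjusted p = 0.46).

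Gbp6 (chr5:105214907-105293695), another guanylate-binding protein, ran from 5.87 to 16.7 (median 12.2) in Ang II and from 11.8 to 28.6 (median 17.1) in sham arteries at 7 days. All 6 Ang II libraries lay under the sham median although the ranges overlapped, and the log2 fold change was -0.62 ± 0.22 (limma adjusted p = 0.27). At 14 days Gbp6 was 14.5, 15.1, 12.0, 11.2 and 9.76 in Ang II and 9.32 to 18.5 (median 16.6) in sham arteries, again with every Ang II library under the sham median (fold change -0.27 ± 0.23, limma adjusted p = 0.49). Exons of Gbp6 overlap those of Gbp10 on the same strand, so its values are uncertain. Gbp2 (chr3:142620602-142638008), which targets bacterial and parasite vacuoles, had the highest mean signal of the group (56.3 over 23 libraries). At 7 days it ran from 36.1 to 54.5 (median 50.3) in Ang II and from 49.98 to 89.99 (median 67.5) in sham arteries. Here 6 of 6 Ang II libraries lay under the sham median (log2 fold change -0.43 ± 0.15, limma adjusted p = 0.27). At 14 days Gbp2 was 60.4, 60.8, 45.2, 42.1 and 45.0 in Ang II and 44.7 to 74.2 (median 58.1) in sham arteries, with 1 Ang II library (42.1) under every sham library and the ranges otherwise overlapping (-0.20 ± 0.16, limma adjusted p = 0.46).

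The immunity-related GTPases had negative fold changes at 7 days as well. Iigp1, which disrupts parasite vacuoles, had the most negative log2 fold change of the 43 (-0.78 ± 0.29), with Igtp at -0.64, Irgm2 at -0.40 and Irgm1, a regulator of the others, at -0.22. The ranges of Iigp1 at 7 days were 15.95 to 35.9 in Ang II and 28.3 to 74.4 in sham arteries. Igtp and Irgm2 share exonic bases on the same strand, so reads may be divided between them. At 14 days the 10 GTPases had a median of -0.09, with 6 of 10 below 0. That small median was above 0 in 4 of 34 alternative fits (up to 0.02), scaling by the total without acinar markers and AY036118 among them. The 7-day median was negative in all 34 alternative fits (-0.53 to -0.34), with 10 of 10 members below 0 in each. Part of the 34 could not differ from the main fit. Leaving out a library of the other time, fitting only the groups of the comparison, or changing only the moderation keeps the fold changes as they are. Leaving out Ang II 7-day replicate 6 or sham 7-day replicate 4 moved the number of GTPases with an unadjusted p under 0.05 to 4 in each case, from 7 with all libraries.

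**Figure D2:**
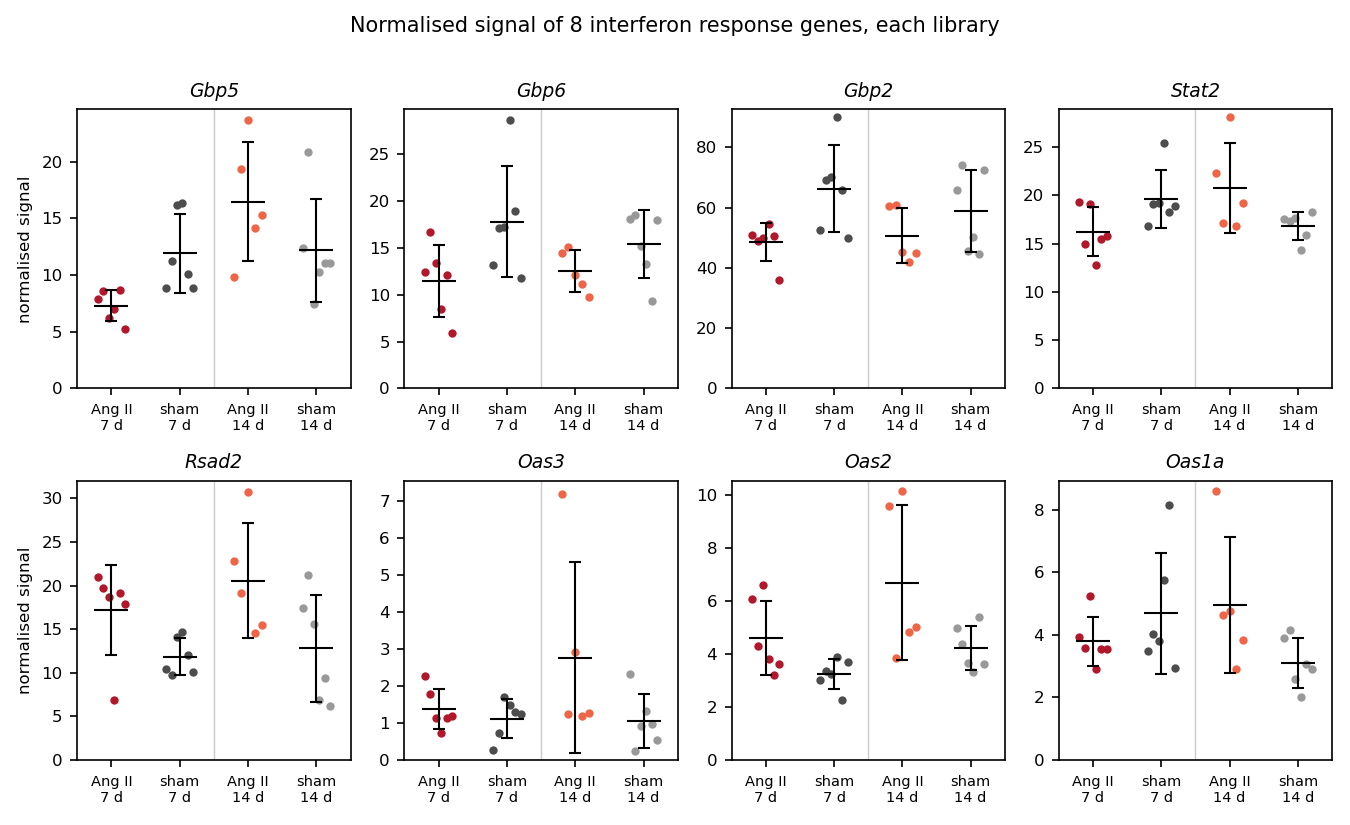
Normalised signal of 8 genes in each of the 23 libraries, Ang II left of sham at 7 and at 14 days. Points are libraries, and bars are means ± SD (n = 6, 6, 5 and 6). Gbp5 separates the groups at 7 days, and Oas3 at 14 days has 1 Ang II library at 7.19 with the others at or under 2.91.

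The antiviral effectors around the IFIT genes had a median log2 fold change of -0.32 at 7 days (10 of 11 below 0) and of 0.03 at 14 days (5 of 11 below 0). The 14-day median was negative under upper-quartile scaling (-0.02), without sham replicate 4 (-0.02) and without Ang II replicate 1 (-0.13). At 7 days Ifit1 and Ifi44, an effector of unknown mechanism, had fold changes of -0.50 ± 0.27 and -0.49 ± 0.22. Ifit3, which stabilises the Ifit1 complex, and Usp18, which removes Isg15 and blocks the receptor, were at -0.40 and -0.39. Rtp4, Isg15, Bst2, Xaf1 and Ifit2 lay between -0.40 and -0.13. Of these only Ifi44 had an unadjusted p under 0.05 at 7 days, and none did at 14 days.

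Rsad2 (chr12:26442746-26456452), the gene of viperin, an enzyme that makes a chain-terminating nucleotide, departed from the rest of that group. At 7 days it ran from 6.88 to 21.02 (median 18.9) in Ang II and from 9.70 to 14.7 (median 11.2) in sham arteries. The value 6.88 belonged to Ang II replicate 4, and the other 5 Ang II libraries lay above every sham library (log2 fold change 0.46 ± 0.29, limma adjusted p = 0.70). Rsad2 at 14 days was 22.8, 19.2, 30.8, 14.6 and 15.4 in Ang II and 6.20 to 21.2 (median 12.5) in sham arteries. All 5 Ang II libraries lay over the sham median, although the ranges overlapped. The fold change of 0.75 ± 0.30 had the smallest p of the 43 at 14 days (0.020, limma adjusted p = 0.12). Ifitm3 (chr7:141009586-141010770), a membrane protein that blocks viral entry, had the highest signal per kilobase of exon of all 43, 107, against 0.216 for Oas3, the lowest. Its 7-day values were 58.5 to 82.3 (median 78.7) in Ang II and 66.7 to 114 (median 74.5) in sham arteries. At 14 days they were 76.4, 68.6, 58.9, 58.0 and 64.4 in Ang II and 56.3 to 99.8 (median 63.3) in sham arteries. The ranges overlapped in part at 7 days, and at 14 days all 5 Ang II libraries lay within the sham range, with log2 fold changes of -0.08 ± 0.13 and -0.09 ± 0.14 (limma adjusted p = 0.93 and 0.73). Both signs turned without 1 sham library, to 0.03 at 7 days without replicate 4 and to 0.02 at 14 days without replicate 2. At 14 days the sign also turned under scaling by the total without acinar markers and AY036118 (0.03). Ifit2, the remaining gene of the group named by rule, ran from 18.1 to 26.6 (median 22.1) in Ang II and 16.99 to 31.8 (median 24.3) in sham arteries at 7 days. At 14 days it was 48.4, 34.2, 25.4, 29.9 and 27.7 in Ang II and 20.7 to 34.8 (median 31.2) in sham arteries, with 1 Ang II library above all sham libraries. Its log2 fold changes were -0.13 ± 0.15 and 0.10 ± 0.16 (limma adjusted p = 0.90 and 0.72).

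The OAS enzymes, which make the 2-5A messenger that activates RNase L, and the Mx GTPases, which trap viral capsids, had a median of -0.14 at 7 days (0.14 with the filter raised to a value of 5, which only 2 of the 7 genes pass) and of 0.28 at 14 days. At 14 days 6 of the 7 were above 0 and 3 had an unadjusted p under 0.05. Oas2 (chr5:120730333-120749853) was 9.59, 3.87, 10.1, 4.84 and 5.03 in Ang II and 3.33 to 5.40 (median 4.03) in sham arteries at 14 days. Replicates 1 and 3 lay far above the sham range and the other 3 Ang II libraries within it (log2 fold change 0.53 ± 0.22, limma adjusted p = 0.14). At 7 days Oas2 ran from 3.21 to 6.62 (median 4.05) in Ang II and from 2.28 to 3.90 (median 3.29) in sham arteries, a fold change of 0.42 ± 0.21 (limma adjusted p = 0.57). Oas2 was the only gene of the 43 that any leave-one-out fit called at 14 days, at an adjusted p of 0.040 without Ang II replicate 2.

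Oas3 (chr5:120753098-120777661), the long member of the family, had few reads, 2 to 138 per library. At 14 days it was 7.19, 1.246, 2.91, 1.199 and 1.28 in Ang II and 0.244 to 2.33 (median 0.942) in sham arteries. The 14-day fold change of 0.91 ± 0.37 (limma adjusted p = 0.13) moved to 0.53 without Ang II replicate 1. At 7 days Oas3 ran from 0.730 to 2.26 (median 1.17) in Ang II and from 0.268 to 1.69 (median 1.27) in sham arteries, so the groups overlapped widely. Oas1a (chr5:120896256-120907521) was 8.596, 4.64, 4.77, 2.91 and 3.83 in Ang II and 2.0 to 4.14 (median 2.99) in sham arteries at 14 days (0.55 ± 0.24, limma adjusted p = 0.15). At 7 days it ran from 2.92 to 5.24 (median 3.58) in Ang II and from 2.95 to 8.14 (median 3.92) in sham arteries (-0.22 ± 0.22, limma adjusted p = 0.87). Oasl2, an OAS-like protein and the family member with the highest mean signal, was 15.5, 10.4, 25.3, 8.67 and 11.3 in Ang II and 8.63 to 13.5 (median 10.7) in sham arteries at 14 days. At 7 days Oasl2 ran from 6.83 to 11.1 (median 9.22) in Ang II and from 7.39 to 13.2 (median 10.5) in sham arteries. Its log2 fold changes were 0.28 ± 0.20 at 14 days and -0.14 ± 0.20 at 7 days (limma adjusted p = 0.41 and 0.91). In all 4 of these genes replicates 1 and 3 were the highest of the 5 Ang II libraries at 14 days. Mx1 and Mx2 had fold changes of -0.18 and -0.42 at 7 days and of 0.05 and -0.07 at 14 days. In C57BL/6 mice both Mx genes carry alleles that make no functional protein, and Mx2 is annotated as a polymorphic pseudogene.

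The transcriptional regulators had a median of -0.27 at 7 days, with 5 of 5 below 0. All 5 were also below 0 in the 34 alternative fits, part of which keep the 7-day fold changes by construction. At 14 days the median was 0.20, with 1 of 5 below 0. Stat2 (chr10:128270559-128292849), a subunit of the type I complex, ran from 12.8 to 19.4 (median 15.6) in Ang II and from 16.9 to 25.5 (median 19.02) in sham arteries at 7 days. At 14 days it was 22.4, 17.2, 28.2, 16.9 and 19.3 in Ang II and 14.3 to 18.2 (median 17.4) in sham arteries. The fold changes were of equal size and opposite sign, -0.27 ± 0.12 at 7 days and 0.27 ± 0.13 at 14 days (limma adjusted p = 0.49 and 0.19). Their difference of 0.54 ± 0.18 had an unadjusted p of 0.00531 and a limma adjusted p of 0.48. Irf1 (chr11:53770014-53778374), an activator induced through the GAS, ran from 24.5 to 32.5 (median 27.4) in Ang II and from 25.98 to 53.9 (median 32.4) in sham arteries at 7 days. The highest sham value, 53.9, was replicate 4, and the fold change was -0.29 ± 0.13 (limma adjusted p = 0.50). At 14 days Irf1 was 30.2, 30.3, 31.4, 26.01 and 28.6 in Ang II and 24.5 to 37.2 (median 28.7) in sham arteries, with a fold change of 0.00 ± 0.14. That 14-day value takes either sign between fits and is negative under upper-quartile scaling (-0.05), in edgeR and in DESeq2. Irf7, which amplifies type I interferon, and Nlrc5, the activator of MHC class I genes, had fold changes of -0.24 and -0.32 at 7 days and of 0.32 and 0.20 at 14 days. Irf9 had -0.15 and -0.11.

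The cytosolic sensors showed the smallest 7-day shift, with a median of -0.02 (2 of 4 below 0), and a median of 0.16 at 14 days (0 of 4 below 0). Ddx58 (chr4:40203773-40239828), which codes for the RNA helicase RIG-I, ran from 32.7 to 38.1 (median 34.3) in Ang II and from 29.6 to 37.8 (median 33.8) in sham arteries at 7 days. Ddx58 at 14 days was 51.7, 39.9, 40.1, 38.2 and 40.0 in Ang II and 34.9 to 40.0 (median 38.9) in sham arteries. Replicate 1 alone stood above the sham range by a wide margin, and the fold change was 0.13 ± 0.08 (limma adjusted p = 0.32). Under scaling by the total without acinar markers and AY036118, Ddx58 was called at 14 days (0.24, limma adjusted p = 0.043). That scaling moved the median of all genes to 0.14, so the excess over that shift was small. Ddx58 and Ifih1, the gene of the helicase MDA5, were also the least variable of the 43, with within-group SDs of 0.12 and 0.15 on the log2 scale. Dhx58, a regulator of both helicases, and Zbp1, a sensor of Z-form nucleic acid, had 14-day fold changes of 0.20 and 0.35.

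Genes of antigen processing had a median of -0.28 at 7 days (3 of 3 below 0) and of 0.03 at 14 days (0 of 3 below 0). Psmb8 (chr17:34197721-34201454), an immunoproteasome subunit, ran from 19.4 to 30.1 (median 26.001) in Ang II and from 22.2 to 44.6 (median 25.4) in sham arteries at 7 days. The value 44.6 was sham replicate 4, and without that library the fold change of -0.12 ± 0.18 became 0.02. At 14 days Psmb8 was 36.0, 32.9, 20.9, 20.6 and 19.3 in Ang II and 21.02 to 36.3 (median 22.7) in sham arteries. Of the 5 Ang II libraries 3 lay under every sham library and the other 2 within the sham range. The fold change, 0.03 ± 0.19, turned negative in 6 alternative fits, among them upper-quartile scaling (-0.03) and leaving out Ang II replicate 1 (-0.10). Psmb9, another immunoproteasome subunit, and Tap1, a peptide transporter subunit, had 7-day fold changes of -0.39 and -0.28 and share exonic bases on opposite strands, which makes their values uncertain.

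The ADP-ribosyltransferases and their partner Dtx3l had medians of -0.07 at 7 days (3 of 3 below 0) and 0.13 at 14 days (0 of 3 below 0). Neither sign turned in the 34 alternative fits, part of which keep the fold changes of a given time by construction. Parp14 (chr16:35832874-35871544), a regulator of Stat-dependent transcription, ran from 52.2 to 72.0 (median 63.2) in Ang II and from 59.6 to 89.2 (median 67.2) in sham arteries at 7 days. Parp14 at 14 days was 76.2, 78.8, 94.0, 70.9 and 73.7 in Ang II and 60.8 to 80.8 (median 70.0) in sham arteries, with all 5 Ang II libraries over the sham median. The difference between the times was 0.35 ± 0.15 (unadjusted p = 0.027, limma adjusted p = 0.51).

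The difference between the responses at the 2 times, tested as an interaction in the same limma fit, was above 0 for 42 of the 43 genes, where 46.6% of all genes were below 0. The median was 0.35 against 0.02 over all genes, and the exception was Ifitm3 (-0.01). No gene passed the adjusted threshold in limma, edgeR or DESeq2 among the 43, and limma called 0.0% of all genes in either direction. At an unadjusted p under 0.05 there were 6 of 43 above 0 (Gbp5, Stat2, Parp14, Oas1a, Tap1 and Gbp7), against 5.13% of all genes, and 0 below, against 4.24%. edgeR and DESeq2 each gave 6 as well. The median lay between 0.23 and 0.46 in all 33 alternative fits, lowest without sham 7-day replicate 4, with 0 to 6 genes below 0. The count of 6 at an unadjusted p under 0.05 was 3 without sham 7-day replicate 4, Ang II 7-day replicate 6, or Ang II 14-day replicate 1 or 3. It was 3 under upper-quartile scaling and 10 under scaling by the total without acinar markers and AY036118. This comparison uses the same libraries as the 7-day and 14-day comparisons and adds no independent evidence to them.

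Sham arteries at 14 days were also compared with sham arteries at 7 days, with a median of -0.04 against -0.01 over all genes and 26 of 43 genes below 0, where 52.6% of all genes were. By role the median was -0.26 for antigen processing (3 of 3 below 0) and -0.21 for regulators (4 of 5). These lay near their 7-day Ang II medians of -0.28 and -0.27. The other role groups ran from -0.07 to 0.09, with GTPases at -0.03. The part of the 7-day sham level in the 7-day differences was not tested. No gene of the 43 was called, by limma, edgeR or DESeq2, and limma called 0.0% of all genes. At an unadjusted p under 0.05 limma had 2 genes higher at 14 days, against 4.43% of all genes, and 1 lower, against 3.14%, and edgeR and DESeq2 had 2 each in all. These were Ddx58 (0.18 ± 0.07), Ifit2 (0.32 ± 0.15) and Oas1a (-0.48 ± 0.22), with limma adjusted p = 0.61, 0.65 and 0.63. The sign of the median turned without sham 7-day replicate 3 or 4 or sham 14-day replicate 5, reaching 0.04.

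**Figure D3:**
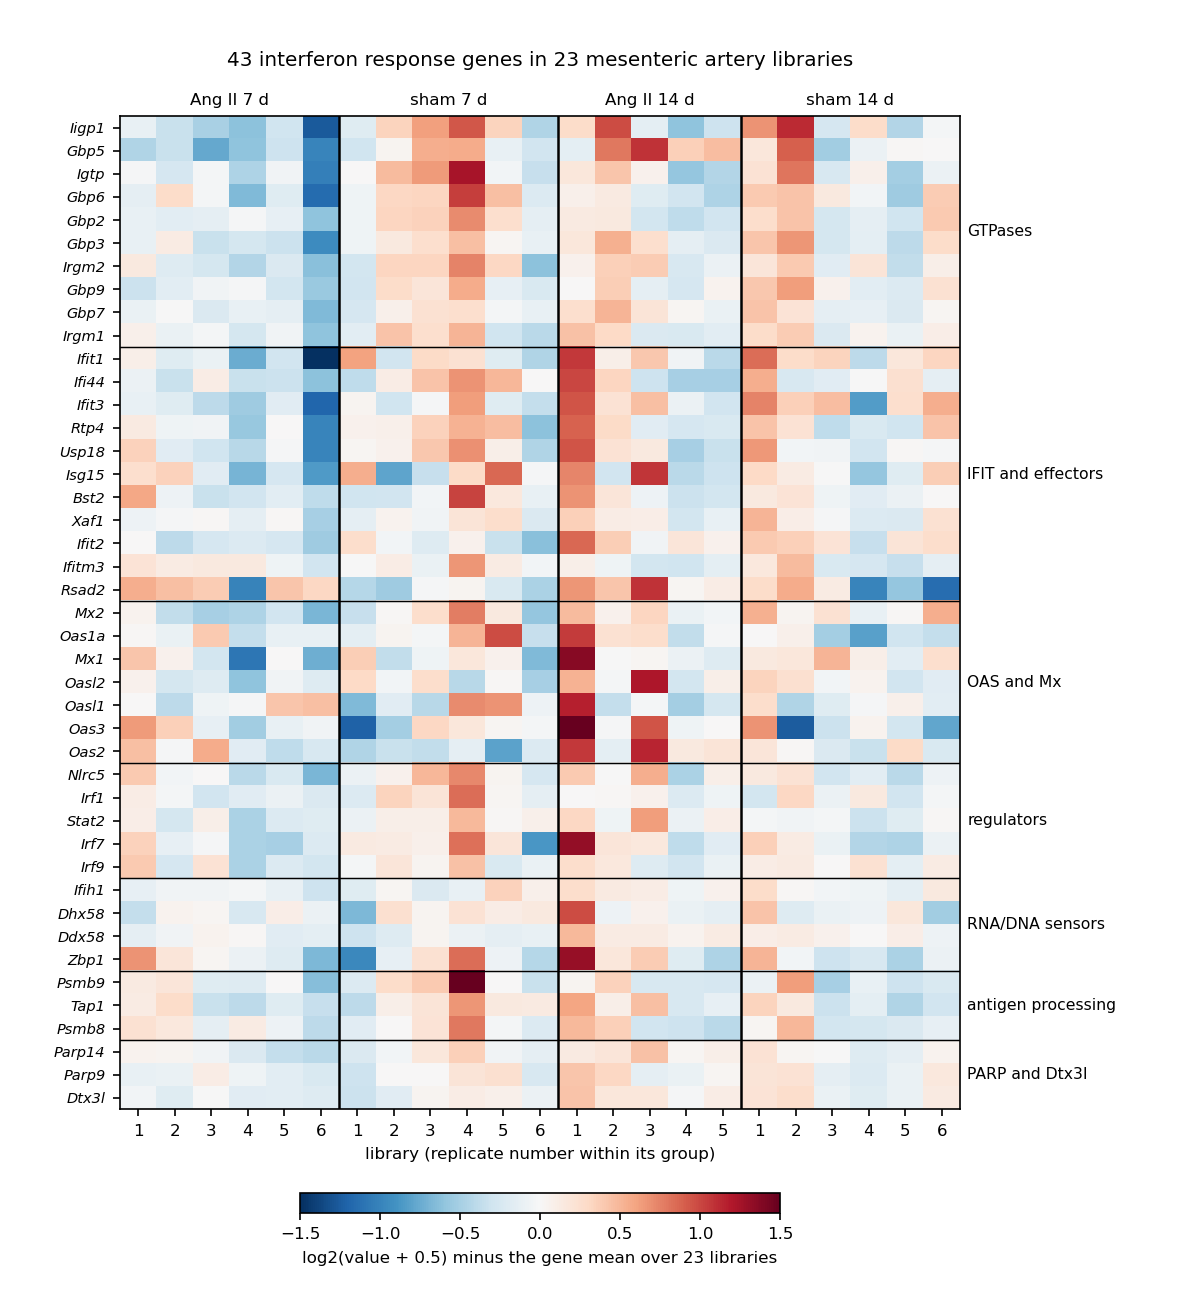
Level of each of the 43 genes (rows, by role) in each of the 23 libraries (columns, by group and replicate), as log2(value + 0.5) minus the gene's mean over all libraries. Whole columns stand apart: sham 7-day replicate 4 and Ang II 14-day replicate 1 are high over many genes, and Ang II 7-day replicate 6 is low.

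Values of the 43 genes also varied between animals of the same group. Their median within-group SD was 0.35 on the log2 scale, against 0.24 over the 12088 tested genes in the same range of means, with Oas3 (0.66), Isg15 (0.54) and Iigp1 (0.53) the most variable. Among the 7-day Ang II libraries, replicate 6 was the lowest of its group for 29 of 43 genes and the lowest of all 23 libraries for 23, and replicate 1 was the highest of its group for 24. Among the 7-day sham libraries, replicate 4 was the highest of its group for 31 genes and the highest of all libraries for 14. That sham library also had the highest summed T cell markers (22.7, against 5.09 to 17.3 in the other 5), macrophage markers (897) and erythroid markers (6526) of its group. The same held for its smooth muscle (8150), endothelial (1433), fibroblast (7748), adipocyte (1087), B cell (12.1) and NK cell (5.39) sums. It did not hold for dendritic cell, plasmacytoid dendritic cell (1769, against 2493 in replicate 6), neutrophil, acinar or gut epithelium markers. Among the 14-day Ang II libraries, replicate 1 was the highest of its group for 25 genes and of all libraries for 16. It also had the highest macrophage sum (1267), dendritic cell sum (54.8) and fibroblast sum (8141) of all libraries, and the lowest smooth muscle sum of its group (6243). Replicate 4 of the same group was the lowest for 29 genes. The part of these cells in the values was not tested.

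**Figure D4:**
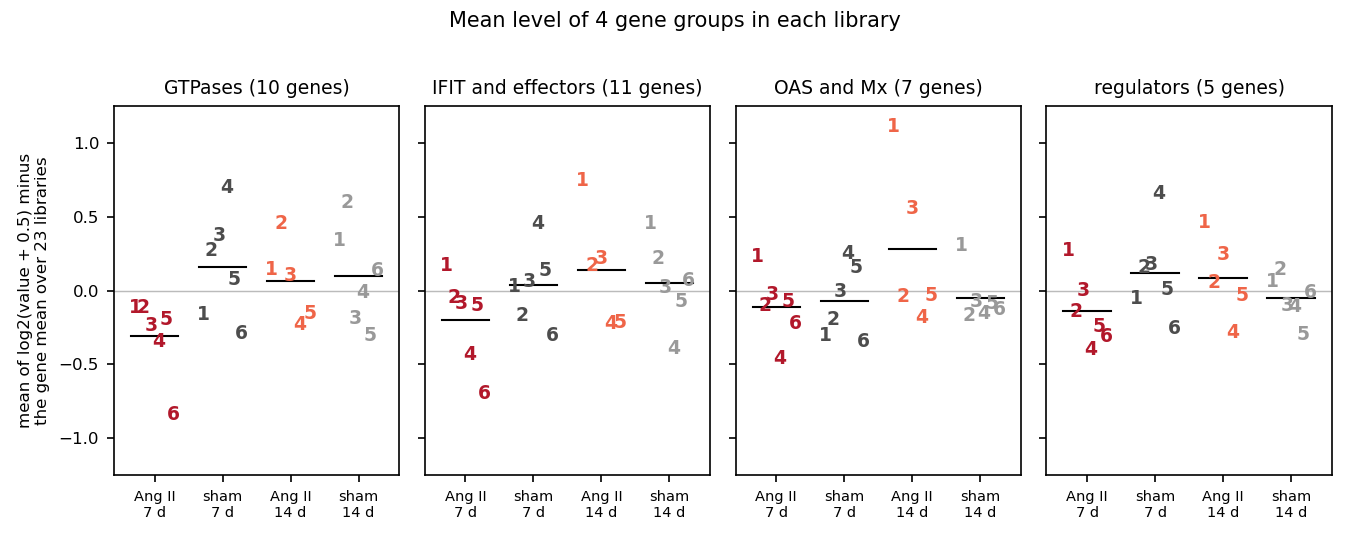
Mean level of the genes of 4 role groups in each library, as the mean of log2(value + 0.5) minus each gene's mean over 23 libraries. Digits are replicate numbers, and black lines are group means. Among GTPases every 7-day Ang II library lies below 0, and for OAS and Mx genes at 14 days replicates 1 and 3 of Ang II lie above all sham libraries.

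The library that stood highest differed between the gene groups. At 14 days the mean of the OAS and Mx genes was highest in Ang II replicate 1 (1.11 above the mean over all libraries, on the log2 scale), followed by replicate 3. For GTPases the highest 14-day libraries were Ang II replicate 2 (0.45) and sham replicate 2 (0.59). The GTPase mean at 7 days ran from -0.84 to -0.11 (median -0.22) in Ang II and from -0.29 to 0.70 (median 0.18) in sham arteries. The 7-day median over the 43 genes was -0.15 without sham replicate 4 and -0.19 without Ang II replicate 6, and 5 genes had an unadjusted p under 0.05 in each case. The 14-day median was -0.01 without Ang II replicate 1, with 22 of 43 genes below 0.

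The leading digits of the animal numbers were spread unevenly over the groups. At 7 days the numbers began with 27 or 28 in both groups, and within each the median over the 43 genes was below 0: -0.17 for numbers beginning with 27 (3 Ang II and 4 sham mice, 33 of 43 genes below 0) and -0.23 for those beginning with 28 (3 and 2 mice, 38 of 43). The GTPase medians within them were -0.38 and -0.31. At 14 days only numbers beginning with 26 occurred in both groups (3 Ang II and 4 sham mice), and the median there was 0.24, with 7 of 43 genes below 0. What these digits stand for is not stated in the labels.

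The rest of the interferon pathway, from lists chosen with earlier results known, was followed in the same fit. Over all genes, limma called 4.04% higher and 2.01% lower at 14 days, and 0.752% higher and 0.0671% lower at 7 days. Of 11 receptor and kinase genes, 2 were called higher at 14 days, none lower, and none at 7 days. Ifngr2, the signalling chain of the interferon gamma receptor, was 37.9, 27.5, 31.8, 29.7 and 26.01 in Ang II and 15.4 to 24.2 (median 18.9) in sham arteries at 14 days. The groups did not overlap, as in 2.36% of all genes in that direction (1.29% in the lower one), and the log2 fold change was 0.64 ± 0.13 (limma adjusted p = 0.0068). At 7 days Ifngr2 ran from 19.9 to 32.2 (median 23.2) in Ang II and from 16.1 to 23.6 (median 18.99) in sham arteries (0.30 ± 0.12, limma adjusted p = 0.40). Ifnar1, a chain of the type I receptor, was 62.4, 53.4, 52.4, 53.2 and 53.0 in Ang II and 40.6 to 48.6 (median 45.2) in sham arteries at 14 days, again without overlap (0.28 ± 0.08, limma adjusted p = 0.031). Its call was lost under upper-quartile scaling (0.23, limma adjusted p = 0.091), with no filter on low values (adjusted p = 0.051), with only the 14-day groups fitted (adjusted p = 0.068) and without sham replicate 3 or 6 or Ang II replicate 1, 4 or 5 (adjusted p = 0.056 to 0.077).

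Their partner chains did not pass the test at either time. Ifngr1, which binds the ligand, had 14-day values of 127, 129, 94.4, 115 and 109 in Ang II and 96.3 to 126 in sham arteries (0.00 ± 0.09). Ifnar2 had 24.1, 19.9, 17.8, 19.3 and 15.6 in Ang II and 15.3 to 18.5 in sham arteries at 14 days (0.19 ± 0.13, limma adjusted p = 0.39). Socs1, the feedback inhibitor of the kinases, was 2.03, 1.03, 1.46, 1.38 and 0.676 in Ang II and 0.417 to 1.07 in sham arteries at 14 days (0.49 ± 0.24, limma adjusted p = 0.20).

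The interferon genes themselves were at or near 0. Of 19 found, 13 had no read in any library, and the largest count was 3 reads, of Ifng. Ifnb1 had 1 read in 1 library, a sham artery, and Ifng had reads in 8 of 23 libraries. At these depths a low level of either cannot be told from none. Of 24 ligand genes found, Il15 and Il18 alone passed the filter, and neither was called.

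**Figure D5:**
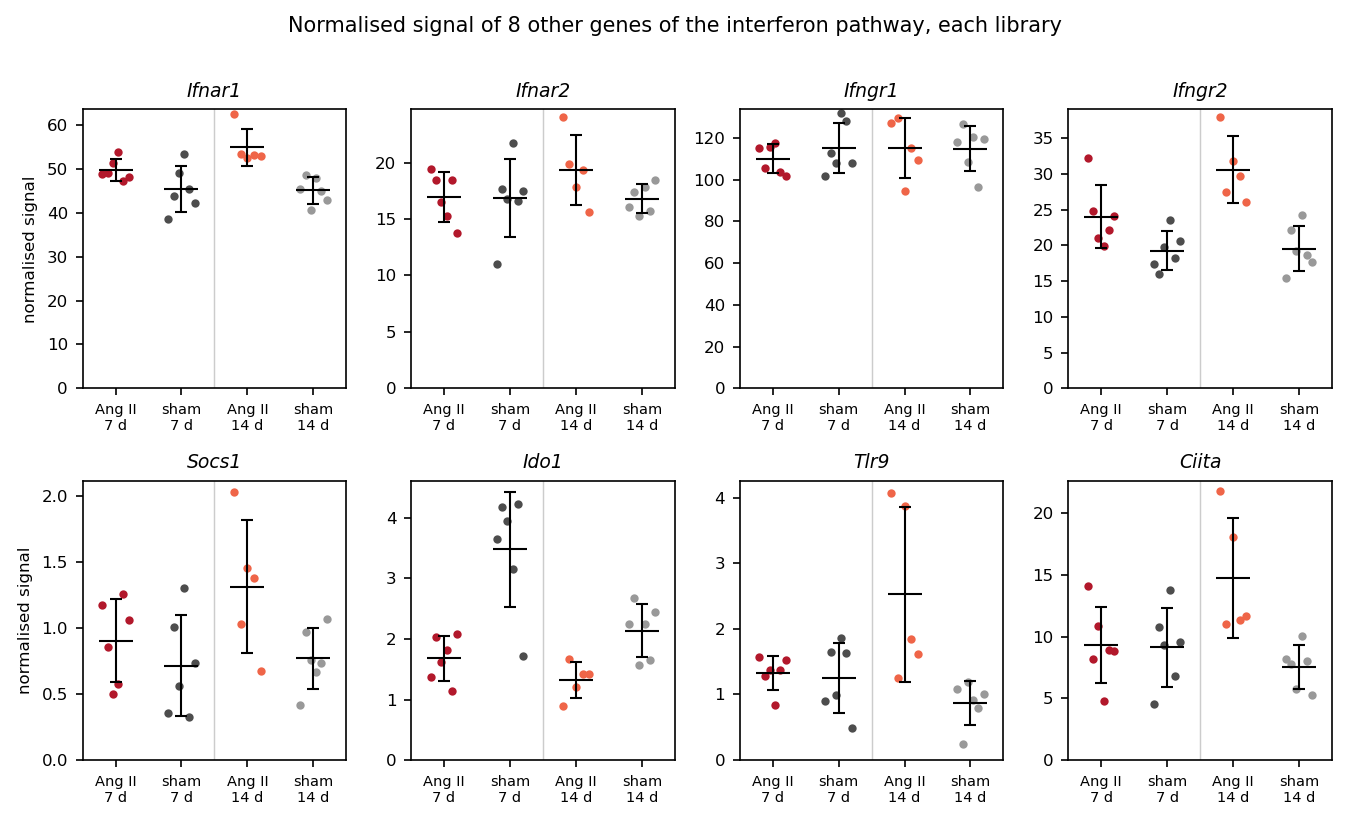
Normalised signal of 8 further genes of the pathway in each library, Ang II left of sham at 7 and at 14 days. Points are libraries, and bars are means ± SD (n = 6, 6, 5 and 6). Ifnar1, Ifngr2, Tlr9 and Ciita have no overlap between Ang II and sham at 14 days, and Ido1 is low in Ang II at both times.

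Among interferon gamma targets outside the 43, 1 of 27 tested was called lower at 7 days, against 0.0671% of all genes. At 14 days 1 was called higher, against 4.04% of all genes. The medians of the 27 were -0.21 at 7 days and -0.04 at 14 days. Between the sham groups, 24 of the 27 were lower at 14 than at 7 days, with a median of -0.27 against -0.01 over all genes. The part of the 7-day sham level in the 7-day median was not tested. Ido1, which degrades tryptophan and is a classic gamma target, ran from 1.15 to 2.08 (median 1.72) in Ang II and from 1.72 to 4.23 (median 3.80) in sham arteries at 7 days. It fell (log2 fold change -0.84 ± 0.18, limma adjusted p = 0.021), with 6 of 6 Ang II libraries under the sham median. The call was lost without sham replicate 1, 2 or 3 or Ang II replicate 1 or 5 (adjusted p = 0.055 to 0.067). At 14 days Ido1 was 0.886, 1.68, 1.205, 1.43 and 1.43 in Ang II and 1.57 to 2.68 (median 2.25) in sham arteries (-0.53 ± 0.19, limma adjusted p = 0.092). Ciita, the activator of MHC class II genes, rose at 14 days, with 21.8, 10.9998, 18.1, 11.3 and 11.7 in Ang II and 5.25 to 10.1 (median 7.93) in sham arteries (0.91 ± 0.25, limma adjusted p = 0.037). Its call was lost without sham replicate 2, 3 or 6 or Ang II replicate 1, 3, 4 or 5 (adjusted p = 0.054 to 0.11). The chemokine genes Cxcl9 and Cxcl10 had 7-day fold changes of -0.55 ± 0.41 and -0.56 ± 0.45 and 14-day ones of 0.79 ± 0.43 and 0.31 ± 0.47, none past the test. In sham 7-day replicate 4 they reached 6.32 and 9.48, the highest of all 23 libraries.

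Of 21 tested IRFs, sensors and adaptors, 2 rose at 14 days, where limma called 4.04% of all genes higher and 2.01% lower. Traf3, an adaptor of the pathway that induces type I interferon, was 30.1, 19.8, 37.6, 25.96 and 24.4 in Ang II and 12.5 to 20.9 (median 18.7) in sham arteries (0.59 ± 0.15, limma adjusted p = 0.019). Tlr9, the endosomal DNA receptor, was 4.06, 1.246, 3.87, 1.84 and 1.61 in Ang II and 0.244 to 1.19 (median 0.965) in sham arteries (1.08 ± 0.27, limma adjusted p = 0.022). Of 18 tested inhibitors Samhd1, which depletes nucleotides, rose at 14 days, with 73.6, 56.2, 80.2, 65.0 and 52.9 in Ang II and 42.8 to 55.5 (median 48.1) in sham arteries (0.42 ± 0.11, limma adjusted p = 0.023). Of 40 other interferon targets Ly6e, a membrane protein, fell at 14 days, with 213, 196, 178, 165 and 190 in Ang II and 187 to 288 (median 233) in sham arteries (-0.32 ± 0.09, limma adjusted p = 0.034). Of the macrophage markers Csf1r rose in the same 14-day Ang II arteries, at 0.62 ± 0.17 (limma adjusted p = 0.028), and the part of macrophages in the values of Tlr9, Ciita and Samhd1, which they also transcribe, was not tested.

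These calls depended on single libraries, on the groups fitted and on the animal numbers. With only the groups of the comparison in the fit, those of Samhd1, Traf3, Tlr9 and Ly6e at 14 days (adjusted p = 0.071 to 0.12) and of Ido1 at 7 days (0.086) were lost, and that of Ciita was lost with no filter on low values (0.065). Without Ang II 14-day replicate 3 those of Traf3, Tlr9, Samhd1, Ciita and Ly6e were lost (adjusted p = 0.070 to 0.11). Tlr9 was also lost without sham replicate 2 (0.053), and Samhd1 without sham replicate 3 or Ang II replicate 4 (both 0.055). Ly6e was lost without sham replicate 2, 3 or 4 or Ang II replicate 4 or 5 (0.053 to 0.10). Its call was also lost under scaling by the total without acinar markers and AY036118 (-0.21, adjusted p = 0.13). The call of Ifngr2 held without each single library. With the leading digits of the animal number as a term, all of the pathway calls named here were lost, with limma adjusted p-values of 0.060 for Ido1 at 7 days and of 0.084 to 0.20 for the 7 genes at 14 days. That fit called 14 genes higher and 2 lower in all at 14 days.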

How the data were processed

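The authors deposited 1 table of normalised signal values for 39179 Ensembl genes in 23 libraries, each made from 500 ng of RNA, per the labels' protocols. Tools named in the submitters' processing notes were STAR 2.3.1 and HTSeq 0.5.3p3 (with bcl2fastq 1.8.4 and FastQC before them), edgeR 3.6.8 and R 3.2.3, and the build was mm10. Which annotation, strand option and scaling were used is not stated in the labels, so values of overlapping genes are uncertain. Of 460324 deposited signal values above 0, 100% were whole multiples of 1 value per library (tolerance 0.001 read), so whole reads were recovered.

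Fold changes came from limma 3.58.1 in R 4.3.3 on log2(value + 0.5), with trended, robust moderation, in 1 fit of 23 libraries with 4 group means. P-values were Benjamini-Hochberg adjusted over 14896 genes with a value of 1 or more in at least 5 libraries, and "called" means an adjusted p under 0.05. This scale understates changes of low genes. Alternatives were edgeR 4.0.16 (quasi-likelihood) and DESeq2 1.42.0 on recovered reads, pseudocounts of 0.1 and 2, other filters, scalings and models, and leaving out each library. The script was tested on simulated data.

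The 43 genes and all lists were chosen with earlier results of these data known. Genes given with their values were the 3 with the smallest p in each comparison, the highest mean of each role group, pathway genes called at 7 or 14 days (up to 4 per list), and Ifnar1, Ifnar2, Ifngr1, Ifngr2, Socs1, Ido1, Cxcl9, Cxcl10, Ifnb1 and Ifng. The ranges of Iigp1 were added after its values were seen. Gene positions are from GENCODE M21 on GRCm38, and promoters from RefSeq on GRCm38.p6. Tables and figures were made with Python 3.11.15, pandas 2.3.3, numpy 2.4.6 and matplotlib 3.10.9. Some results are not reported here.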

Additional observations from a re-analysis of the deposited data

Results flagged for a closer look

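Single libraries that stood far from the rest of their group were looked for by the gap of the highest or lowest library relative to the group's range (Dixon's ratio), in 88 groups over the 15 genes of the 43 given with their values and the 7 role means. Of these, 10 passed, where chance gives about 1 in 20.

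In Ang II arteries at 7 days, replicate 6 was low for Gbp2 (36.1, others 49.1 to 54.5), for the GTPase mean (-0.84, others -0.35 to -0.11, log2 scale) and for the sensor mean (-0.30, others -0.09 to 0.03). Replicate 4 of that group was low for Rsad2 (6.88, others 17.8 to 21.02). In Ang II arteries at 14 days, replicate 1 was high for Ddx58 (51.7, others 38.2 to 40.1). In sham arteries at 7 days, replicate 4 was high for Stat2 (25.5, others 16.9 to 19.2) and for Ifitm3 (114, others 66.7 to 77.9). In sham arteries at 14 days, replicate 1 was high for the OAS and Mx mean (0.31, others -0.17 to -0.07) and for the sensor mean (0.33, others -0.13 to -0.02), and replicate 4 was low for Ifit2 (20.7, others 30.3 to 34.8).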

How the results depend on the processing

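The number of the 43 genes called was 0 at 7 days, for the difference between the times and for sham at 14 against 7 days under every alternative. At 14 days it was 1 under scaling by the total without acinar markers and AY036118, and 0 to 1 when single libraries were left out. The medians over the 43 genes ran from -0.32 to -0.15 at 7 days, from -0.01 to 0.14 at 14 days, from 0.23 to 0.44 for the difference and from -0.13 to 0.04 between shams as single libraries were left out. Some values changed sign. At 14 days Irf1 was -0.0509 under upper-quartile scaling, -0.00478 in edgeR and -0.0343 in DESeq2, and Psmb8 was -0.0251 under upper-quartile scaling. Ifitm3 at 14 days was 0.0256 under scaling by the total without acinar markers and AY036118. With single libraries left out, Ifitm3 ran from -0.126 to 0.0267 at 7 days and from -0.148 to 0.0165 at 14 days, Psmb8 from -0.178 to 0.0205 and from -0.0997 to 0.140, and Irf1 at 14 days from -0.0455 to 0.0723. Causes were not tested. Over all genes at 14 days, 602 were called higher and 300 lower, against 406 and 465 under upper-quartile scaling, 883 and 358 in edgeR, 1029 and 766 in DESeq2, and 14 and 2 with the leading digits of the animal number as a term. At 7 days the counts were 112 and 10, against 109 and 10 in edgeR, 173 and 39 in DESeq2 and 78 and 6 with that term. No paired analysis was possible because the replicate numbers only follow accession order. Depth limits the genes with few reads, such as Oas3 and the interferons themselves.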
